A study of Mus musculus with 8 samples.

Results

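The collagen genes were taken as every gene symbol in the deposited tables that reads Col, a type number, a and a chain number (Col1a1, Col4a2 and so on). There were 44 of them among 23343 symbols. They fell into 11 fibrillar genes, 6 basement membrane genes (type IV) and 27 genes of other types. RNA of spermatogonia from the testes of C57BL/6 mice was sequenced at postnatal day 7 in 8 libraries, 2 in each of 4 groups. The groups were cKit+ spermatogonia labelled PRC1dKO (cKit dKO), cKit+ spermatogonia labelled PRC1ctrl (cKit control), Thy1+ spermatogonia labelled PRC1dKO (Thy1 dKO) and Thy1+ spermatogonia labelled PRC1ctrl (Thy1 control). PRC1 stands for Polycomb repressive complex 1, which places ubiquitin on histone H2A and takes part in silencing developmental genes. Sorting for Thy1 is used to enrich the undifferentiated cells, while Kit appears as spermatogonia start to differentiate. The labels do not name the deleted genes, any Cre driver, the genotype of the controls, or whether the 2 libraries of a group came from separate animals. The p-values therefore measure only the spread between these libraries, which may be technical.

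Collagens are extracellular proteins built from chains wound into a triple helix, and each chain is encoded by its own gene. Fibrillar collagens (types I, II, III, V, XI, XXIV and XXVII) form the fibrils of connective tissue, type IV forms the sheet-like network of basement membranes, and the other types decorate fibrils, form beaded filaments or short networks, or span the cell membrane. In the testis the seminiferous tubule, which holds the germ cells, rests on a basement membrane, with collagen-producing peritubular and interstitial cells outside it. Chains are hydroxylated and folded inside the cell with the help of dedicated enzymes and chaperones, then trimmed and cross-linked outside it.

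Libraries held 6763908 to 10976869 counts. Levels of a gene between libraries are given as CPM, counts relative to the scaled size of the library, and levels between genes as the RPKM values that the authors deposited, which are per kilobase of transcript. A gene is called higher or lower where the edgeR quasi-likelihood test over all genes gave an adjusted p under 0.05. The low count filter passed 14907 genes, among them 42 of the 44 collagen genes (all 11 fibrillar, all 6 type IV and 25 of the 27 others). The sort markers went with the labels: Kit had 1057 and 1011 CPM in cKit dKO and 1048 and 937 CPM in cKit control, against 310.5 and 281 CPM in Thy1 dKO and 301 and 317 CPM in Thy1 control. Thy1 was at most 1.28 CPM in the cKit libraries and at least 12.8 CPM in the Thy1 libraries. These values do not show which cells held the RNA. The markers of Leydig cells, listed below, summed to 10459.8 to 17155 CPM in the cKit libraries and to 2414 to 3974 CPM in the Thy1 libraries. The genes of the catalytic subunits of PRC1 were checked next. Ring1 had 11.99 and 4.07 CPM in cKit dKO, against 4.498 and 5.23 CPM in cKit control, and 2.59 and 5.17 CPM in Thy1 dKO, against 3.15 and 2.697 CPM in Thy1 control. Rnf2 had 134 and 141 CPM in cKit dKO, against 146 and 125 CPM in cKit control, and 128 and 126 CPM in Thy1 dKO, against 103 and 120.3 CPM in Thy1 control. Neither was called in either dKO comparison (edgeR adjusted p of 0.302 to 0.907), so dKO means the libraries labelled dKO throughout; counts per gene do not show whether a few exons were lost. The record numbers in the labels run from 2384 to 2387 in the Thy1 libraries, and are 3172, 3173, 3174 and 3346 in the cKit libraries, where 3346 is cKit control replicate 1. Whatever these numbers record, the block of numbers and the population cannot be told apart.

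Collagen RNA was present in every library and took 0.833 and 0.729% of the counts in the cKit dKO libraries, against 0.528 and 0.518% in the cKit control libraries. In Thy1 dKO it took 1.37 and 1.44% of the counts, against 1.57 and 1.18% in Thy1 control. The cKit dKO libraries were thus both above the cKit control libraries, while the Thy1 dKO libraries lay between the Thy1 control libraries. The share of collagen counts that came from types I and III was 48.6% and 45.2% in cKit dKO, 46.7% and 45.2% in cKit control, 62.1% and 62.1% in Thy1 dKO and 65.4% and 63.3% in Thy1 control. In bulk RNA, more or fewer cells of a type and more or less RNA per cell cannot be told apart.

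Per kilobase, the 3 most abundant collagen genes over all libraries were Col1a2 (a chain of type I), Col3a1 (type III) and Col1a1 (the other chain of type I), with a mean RPKM of 131, 122 and 69.7. Col1a2 had 94.6 and 77.8 RPKM in cKit dKO, 68.2 and 63.2 RPKM in cKit control, 189 and 191 RPKM in Thy1 dKO and 219 and 148 RPKM in Thy1 control. Below them stood Col6a1 and Col6a2, chains of the beaded filaments of type VI, at 42.3 and 38.0 RPKM, and Col4a1 and Col4a2, the common basement membrane chains, at 30.2 and 28.2 RPKM. Col4a1 was above Col4a2 in each of the 8 libraries, by a small margin, while the order of Col6a1 and Col6a2 turned in Thy1 control, where Col6a2 was the higher. From Col5a1, at 10.8 RPKM, the levels fell off gradually, to 1.66 RPKM for Col18a1, the last of the 20 most abundant.

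**Figure D1:**
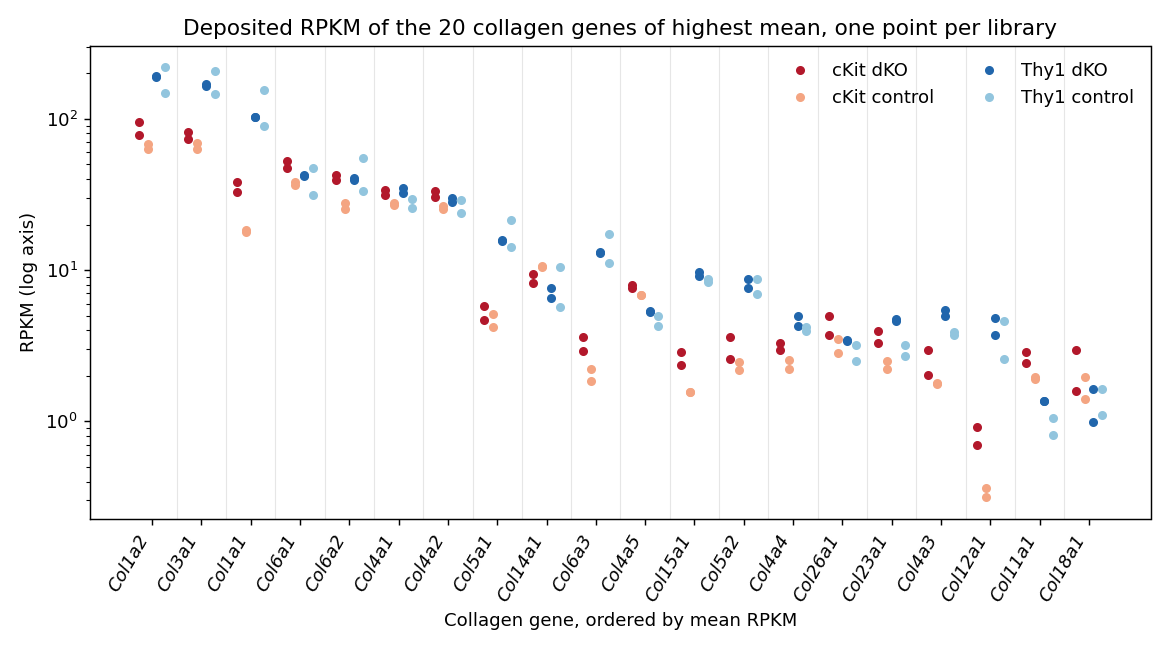
Deposited RPKM (log axis) of the 20 collagen genes of highest mean, with 1 point per library and the groups in the order cKit dKO, cKit control, Thy1 dKO and Thy1 control within each gene. Col1a2, Col3a1 and Col1a1 stand highest in the Thy1 libraries, and Col6a3, Col12a1 and Col15a1 stand apart between the populations.

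Summed over a class, the 11 fibrillar genes reached 4312 ± 682 CPM in cKit dKO and 2572 ± 7.69 CPM in cKit control, and 9259.8 ± 231 CPM in Thy1 dKO and 9460.5 ± 2033 CPM in Thy1 control (mean ± SD, n = 2 each). The 6 type IV genes reached 1969 ± 15.99 CPM in cKit dKO and 1279 ± 73.4 CPM in cKit control, and 1889.7 ± 65.7 CPM in Thy1 dKO and 1584 ± 54.3 CPM in Thy1 control. For the 27 other genes the sums were 2102 ± 181 CPM in cKit dKO and 1248 ± 55.2 CPM in cKit control, and 2538 ± 39.5 CPM in Thy1 dKO and 2413 ± 541 CPM in Thy1 control. In cKit, the sums of all 3 classes did not overlap between dKO and control, with ratios of 1.68, 1.54 and 1.68; in Thy1 the fibrillar and other sums overlapped and the type IV sums did not, with a ratio of 1.19.

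**Figure D2:**
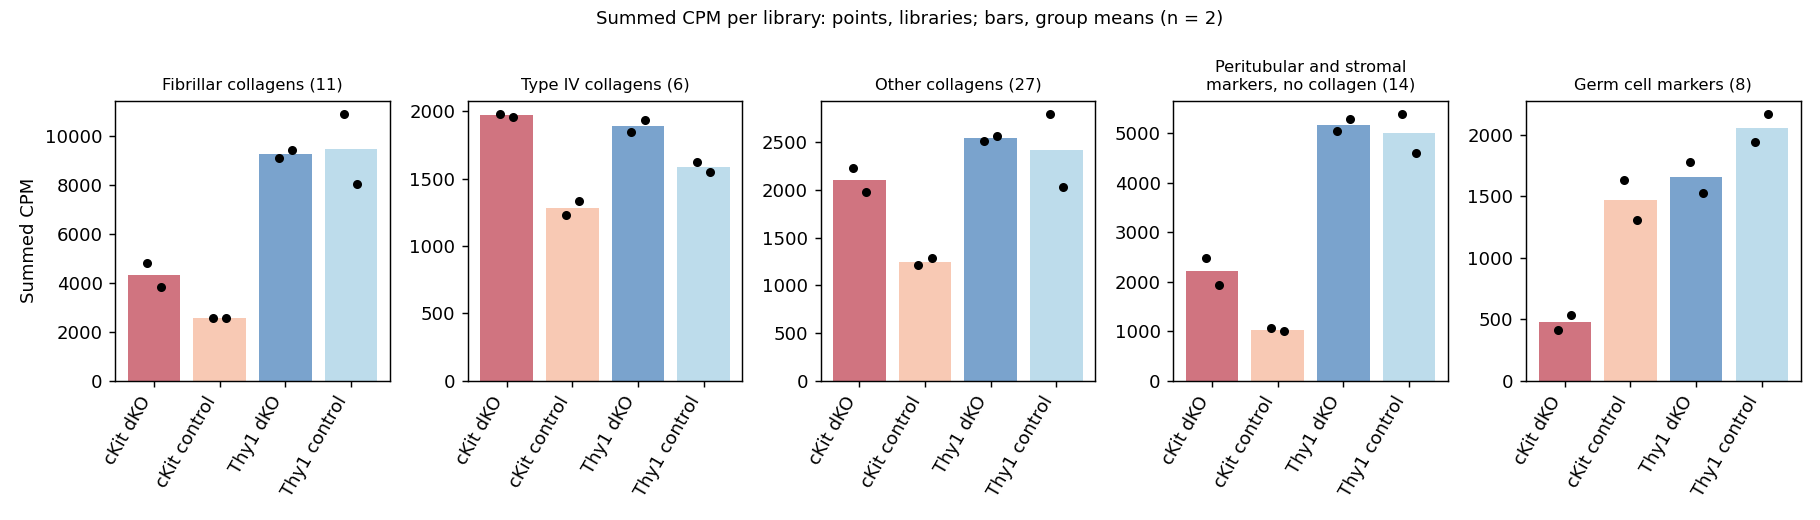
Summed CPM per library for the 3 collagen classes and for the non-collagen peritubular and stromal markers and the germ cell markers; points are libraries and bars are group means (n = 2). The collagen and stromal sums are higher, and the germ cell sum is lower, in cKit dKO than in cKit control, and the fibrillar and stromal sums are highest in the Thy1 groups.

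The sequence before the transcription start is shown for the 2 most abundant collagen genes, Col1a2 and Col3a1, and for Col15a1, Col6a2 and Col23a1, which were called higher in cKit dKO under every setting tried. Each line gives the 250 bases upstream of the RefSeq start site, 5′ to 3′ on the strand of the gene, in GRCm38.p6 (the mm10 build). The windows are chr6:4505368-4505617, plus strand, for Col1a2; chr1:45311288-45311537, plus strand, for Col3a1; chr4:47207762-47208011, plus strand, for Col15a1; chr10:76623405-76623654, minus strand, for Col6a2; and chr11:51289670-51289919, plus strand, for Col23a1. Capitals mark TATAAA (the TATA box), CCAAT (the CCAAT box) and GGGCGG (the GC box bound by Sp1 family factors) on either strand.
Col1a2: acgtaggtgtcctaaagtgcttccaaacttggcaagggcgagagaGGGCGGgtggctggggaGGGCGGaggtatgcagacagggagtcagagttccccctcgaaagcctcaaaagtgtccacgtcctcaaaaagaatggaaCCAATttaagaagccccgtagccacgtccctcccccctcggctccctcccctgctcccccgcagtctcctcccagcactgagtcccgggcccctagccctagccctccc
Col3a1: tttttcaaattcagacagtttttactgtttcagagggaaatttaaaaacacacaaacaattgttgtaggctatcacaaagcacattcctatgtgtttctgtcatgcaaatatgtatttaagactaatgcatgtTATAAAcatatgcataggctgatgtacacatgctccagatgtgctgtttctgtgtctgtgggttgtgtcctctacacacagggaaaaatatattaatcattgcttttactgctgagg
Col15a1: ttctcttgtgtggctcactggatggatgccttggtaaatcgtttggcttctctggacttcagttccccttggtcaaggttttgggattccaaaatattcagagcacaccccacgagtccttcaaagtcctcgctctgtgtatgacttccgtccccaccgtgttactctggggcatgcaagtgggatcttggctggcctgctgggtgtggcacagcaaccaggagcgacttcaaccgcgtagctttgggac
Col6a2: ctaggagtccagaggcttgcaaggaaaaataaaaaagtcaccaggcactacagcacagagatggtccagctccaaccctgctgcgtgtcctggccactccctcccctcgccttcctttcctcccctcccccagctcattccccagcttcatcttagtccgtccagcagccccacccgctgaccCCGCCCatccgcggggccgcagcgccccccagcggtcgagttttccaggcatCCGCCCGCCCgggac
Col23a1: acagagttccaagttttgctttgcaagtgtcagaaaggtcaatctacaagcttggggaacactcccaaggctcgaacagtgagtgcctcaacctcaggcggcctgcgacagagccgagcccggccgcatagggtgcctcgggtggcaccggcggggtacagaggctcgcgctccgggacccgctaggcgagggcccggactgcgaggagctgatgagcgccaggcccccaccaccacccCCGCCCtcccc

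The windows differ: Col1a2 holds a pair of GC boxes and a CCAAT box, Col3a1 holds a TATA box and not a single CG dinucleotide, Col15a1 holds none of the 3 motifs, Col6a2 holds GC boxes on the opposite strand, overlapping ones next to the start among them, and Col23a1 holds 1 GC box on the opposite strand. RefSeq promoters were matched for 35 of the 44 collagen genes. A GC box was found in 57.1% of these 35 windows, against 32.7% of 32851 RefSeq promoter windows of the same length; a CCAAT box in 31.4% against 33.8%; and a TATA box in 14.3% against 12.4%. The median number of CG dinucleotides was 10 in the collagen windows and 6 in all windows. The range ran from 0 in Col3a1 to 31 in Col4a1. These are counts of letters, not of bound sites.

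In cKit spermatogonia, 23 of the 42 collagen genes tested were higher in dKO than in control and 0 were lower, where 28.6% of all genes were called (13.2% higher and 15.4% lower). The median log2 fold change was 0.74 over the collagen genes and 0.03 over all genes tested. Col2a1 and Col9a1, the genes at 0 counts in dKO, stay below this median at the bound that a floor of 3 counts gives. Setting them to that bound therefore could not move the median, which remained 0.74. By class, 8 of 11 fibrillar, 5 of 6 type IV and 10 of 25 other collagen genes were higher. The 2 libraries of dKO were both above those of control for 30 of the 42 genes and both below for 2, where the CPM of 30.8% of all genes lay wholly above and of 30% wholly below. The medians of the fibrillar, type IV and other genes (0.81, 0.62 and 0.71) were positive in every setting tried.

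Among the fibrillar genes, Col1a1 changed most of those called. Col1a1 had 699 and 561 CPM in cKit dKO, against 248 and 261 CPM in cKit control. The groups did not overlap, the log2 fold change was 1.31 ± 0.16 (fold 2.48) and the edgeR adjusted p was 3.98e-05. Its partner chain Col1a2 had 1896 and 1460.4 CPM in cKit dKO, against 1002 and 1004 CPM in cKit control, with a log2 fold change of 0.74 ± 0.13 and an edgeR adjusted p of 0.000796. Col3a1, which forms fibrils of distensible tissues together with type I, had 1777 and 1490.0 CPM in cKit dKO, against 1094 and 1077 CPM in cKit control. Its log2 fold change was 0.59 ± 0.12 (edgeR adjusted p = 0.00179). Type I and type III RNA thus rose together in these libraries.

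Type V nucleates fibrils and limits their width. Col5a1 had 189.8 and 143 CPM in cKit dKO, against 123 and 109 CPM in cKit control, Col5a2 had 92.7 and 62.5 CPM in cKit dKO, against 46.5 and 44.7 CPM in cKit control, and Col5a3 had 32.6 and 24.8 CPM in cKit dKO, against 11.4 and 16.6 CPM in cKit control. The log2 fold changes were 0.52 ± 0.16, 0.77 ± 0.17 and 1.05 ± 0.22, with edgeR adjusted p of 0.0219, 0.00323 and 0.00272. All 3 genes had non-overlapping groups, and Col5a3 had the largest of these changes. The call of Col5a1 was lost without cKit dKO replicate 1, without cKit control replicate 1 and without cKit control replicate 2 (edgeR adjusted p of 0.0504 to 0.126, log2 fold change 0.35 to 0.61). Col11a1, a minor fibrillar chain best known from cartilage, had 82.03 and 64.1 CPM in cKit dKO, against 40.6 and 42.95 CPM in cKit control (log2 fold change 0.81 ± 0.16, edgeR adjusted p = 0.00188). Col27a1, also known from cartilage, had 18.1 and 19.1 CPM in cKit dKO, against 8.74 and 8.79 CPM in cKit control (log2 fold change 1.08 ± 0.25, edgeR adjusted p = 0.00494).

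The other fibrillar genes lay near the detection limit. Col11a2 had 2.08 and 4.23 CPM in cKit dKO, against 1.21 and 1.402 CPM in cKit control, and Col24a1 had 4.32 and 0.627 CPM in cKit dKO, against 1.38 and 1.02 CPM in cKit control; neither was called, with edgeR adjusted p of 0.182 and 0.349. Col2a1, the main cartilage fibril chain, had 0 counts in both cKit dKO libraries. The cKit control libraries had 16 and 3 counts, 19 in all, so the second was itself at the floor. With 3 counts for the dKO group as the floor, it was at least 4.12-fold lower by the pooled counts. That bound leaves out the spread between the control libraries, and Col2a1 did not pass the test (edgeR adjusted p = 0.0605).

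All 6 type IV genes had both cKit dKO libraries above both cKit control libraries, and 5 were called. Col4a1 had 806 and 814 CPM in cKit dKO, against 526 and 548 CPM in cKit control (log2 fold change 0.59 ± 0.10, edgeR adjusted p = 0.00039). Col4a2, its partner in the common basement membrane trimer, had 758 and 784 CPM in cKit dKO, against 462 and 527 CPM in cKit control (0.64 ± 0.11 on the log2 scale, edgeR adjusted p = 0.00041). Both genes lie head to head on chromosome 8 (mm10, chr8:11198423-11312826 on the minus strand and chr8:11312829-11449287 on the plus strand), with their deposited 5′ ends 3 bases apart. Col4a3 and Col4a4, which form the specialised network known from the kidney glomerulus with Col4a5, had 99.5 and 63.1 CPM in cKit dKO, against 43.7 and 47.7 CPM in cKit control, and 100.3 and 84.8 CPM in cKit dKO, against 56.6 and 53.8 CPM in cKit control. Their log2 fold changes were 0.83 ± 0.18 and 0.74 ± 0.13 (edgeR adjusted p = 0.00279 and 0.000805). Col4a5 had 187 and 185 CPM in cKit dKO, against 124 and 134 CPM in cKit control (log2 fold change 0.53 ± 0.11, edgeR adjusted p = 0.00261). Col4a6, its head-to-head neighbour on chromosome X, had 28.8 and 25.8 CPM in cKit dKO, against 15.5 and 21.4 CPM in cKit control and missed the threshold (log2 fold change 0.58 ± 0.21, edgeR adjusted p = 0.0554). The 6 log2 fold changes spanned 0.53 to 0.83 and those of the 8 called fibrillar genes 0.52 to 1.31.

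Of type VI, the 3 classical chains were higher. Col6a1 had 817 and 690.4 CPM in cKit dKO, against 435 and 449 CPM in cKit control, Col6a2 had 619.8 and 539.7 CPM in cKit dKO, against 272 and 319 CPM in cKit control, and Col6a3 had 128 and 96.2 CPM in cKit dKO, against 57.9 and 52.5 CPM in cKit control. Their log2 fold changes were 0.77 ± 0.13, 0.98 ± 0.16 and 1.02 ± 0.17 (edgeR adjusted p = 0.000639, 0.000335 and 0.00039). Col6a6, a further type VI chain, was low, with 9.43 and 6.58 CPM in cKit dKO, against 4.58 and 3.696 CPM in cKit control (log2 fold change 0.93 ± 0.26, edgeR adjusted p = 0.0157). Its call was lost without cKit dKO replicate 1 and without cKit control replicate 2 (edgeR adjusted p of 0.0584 to 0.112). Col6a5 had 4.96 and 1.25 CPM in cKit dKO, against 1.21 and 2.804 CPM in cKit control, overlapping and not called (edgeR adjusted p = 0.34).

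Col12a1, a FACIT collagen that sits on the surface of type I fibrils, had the largest log2 fold change of the 23 called genes. It had 41.7 and 29.8 CPM in cKit dKO, against 10.5 and 13.00 CPM in cKit control (log2 fold change 1.62 ± 0.25, edgeR adjusted p = 0.000236). Col14a1, also a FACIT and among the 20 most abundant collagen genes, is named after its values were seen: it had 206 and 221 CPM in cKit dKO, against 194 and 212 CPM in cKit control and was not called (log2 fold change 0.08 ± 0.18, edgeR adjusted p = 0.789). The multiplexins Col15a1 and Col18a1 occur in and next to basement membranes. Col15a1 had 59.5 and 45.9 CPM in cKit dKO, against 23.8 and 25.6 CPM in cKit control (log2 fold change 1.10 ± 0.15, edgeR adjusted p = 8.94e-05). Col18a1, whose C-terminal fragment is endostatin, had 34.9 and 60.5 CPM in cKit dKO, against 31.4 and 24.2 CPM in cKit control (log2 fold change 0.77 ± 0.25, edgeR adjusted p = 0.0289). The call of Col18a1 was lost without cKit dKO replicate 2 and without either cKit control library (edgeR adjusted p of 0.0527 to 0.31, log2 fold change 0.35 to 0.98).

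Of the transmembrane collagens, Col23a1 had 86.8 and 68.6 CPM in cKit dKO, against 40.5 and 38.7 CPM in cKit control (log2 fold change 0.97 ± 0.15, edgeR adjusted p = 0.000199). Col25a1 had 64.4 and 48.7 CPM in cKit dKO, against 27.3 and 28.9 CPM in cKit control (log2 fold change 1.01 ± 0.17, edgeR adjusted p = 0.000579). Both had non-overlapping groups, whereas the transmembrane genes Col13a1 and Col17a1 were not called (edgeR adjusted p = 0.163 and 0.485). Col26a1 had 39.2 and 49.2 CPM in cKit dKO, against 26.99 and 23.7 CPM in cKit control (log2 fold change 0.80 ± 0.18, edgeR adjusted p = 0.00437). The 15 genes of the other types that were not called spanned log2 fold changes from -1.47 (Col9a3) to 1.81 (Col9a2), leaving aside Col9a1, which had 0 counts in dKO and 1 in control. Among them Col8a1, a short-chain network collagen, had 13.8 and 13.9 CPM in cKit dKO, against 8.13 and 7.01 CPM in cKit control (log2 fold change 0.87 ± 0.34, edgeR adjusted p = 0.0692).

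**Figure D3:**
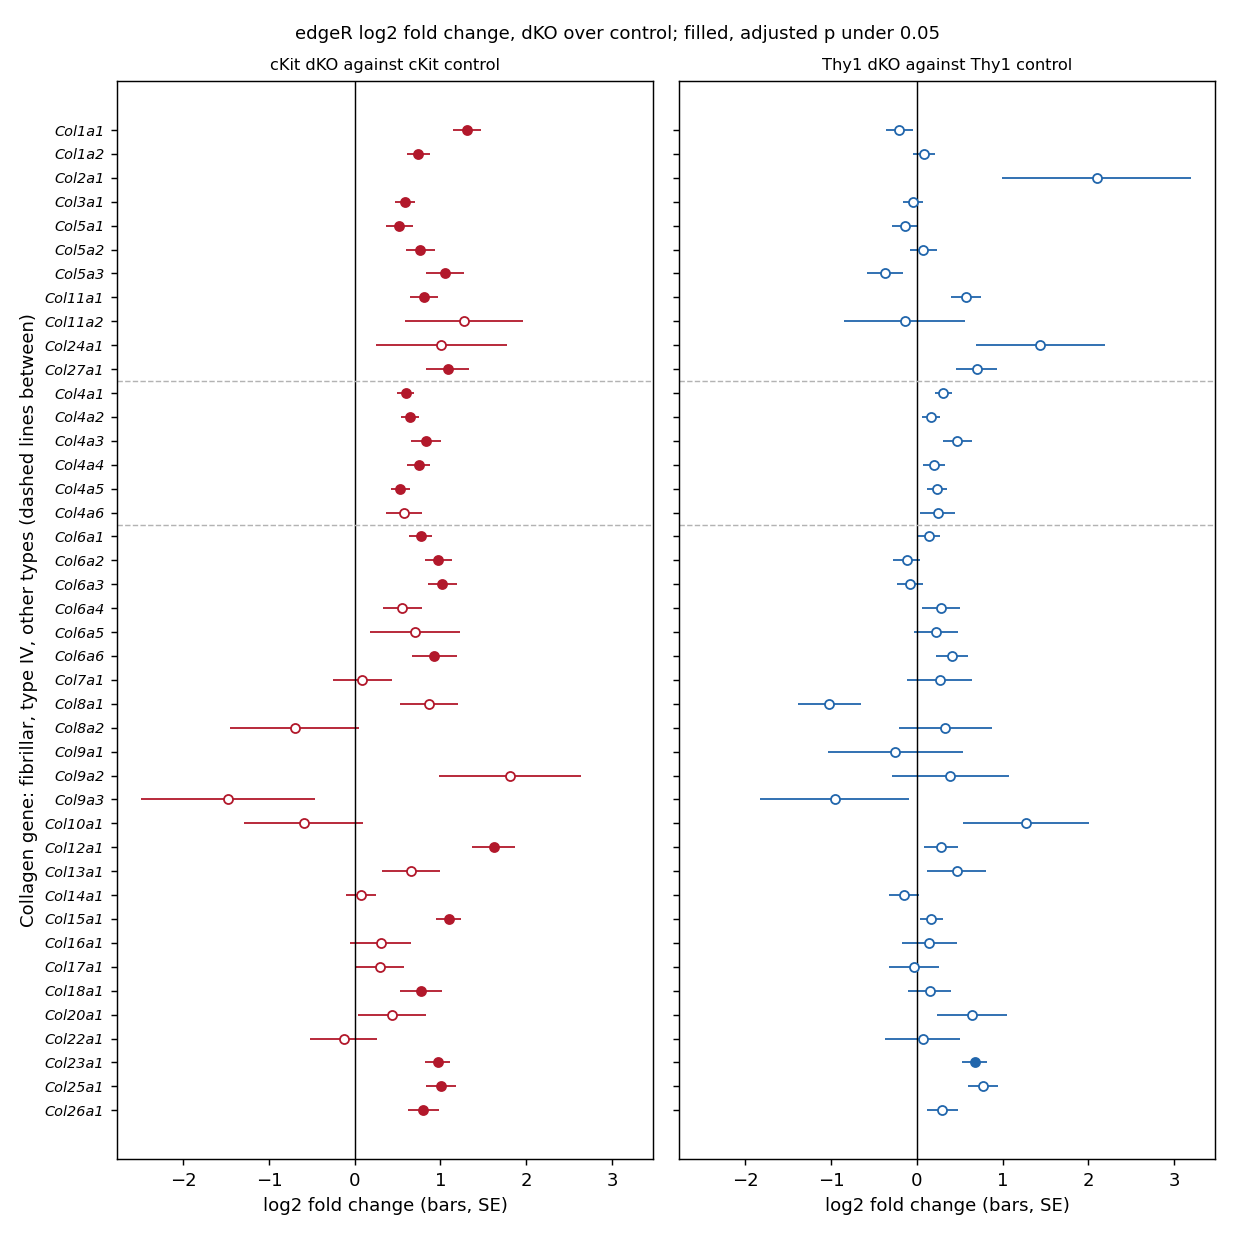
edgeR log2 fold change of dKO over control, with its standard error, for each collagen gene tested in cKit (left) and Thy1 (right); filled points are called, and dashed lines part the fibrillar, type IV and other genes. Col2a1 and Col9a1 are left out on the left because both cKit dKO libraries hold 0 counts; called genes on the left lie between 0.52 and 1.62, and on the right only Col23a1 is filled.

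Markers of other cells moved in the same comparison, where 13.2% of all genes were called higher and 15.4% lower. The 14 peritubular and stromal markers that are not collagens summed to 1943 to 2471 CPM in cKit dKO, against 1011 to 1056 CPM in cKit control, and 8 of the 14 were higher; none of the 14 was at 0 in any library. The 8 germ cell markers summed to 411 to 537 CPM in cKit dKO, against 1308 to 1638 CPM in cKit control, and 6 of the 8 were lower. Of the other lists, 4 of 9 Sertoli, 4 of 8 endothelial, 0 of 7 macrophage and 4 of 6 Leydig markers were higher, and 1 Leydig marker was lower. The Leydig markers summed to 14437 to 17155 CPM in cKit dKO, against 10459.8 to 12569 CPM in cKit control, the Sertoli markers to 1161 to 1203 against 783 to 836 CPM, the endothelial markers to 443 to 449 against 221 to 230.1 CPM, and the macrophage markers to 136 to 500.2 against 167 to 389 CPM. The part of other cell types in the collagen result was not tested. Scaling the libraries to the germ cell markers moved the median of all genes to 1.58. Then 37 of the 42 collagen genes (88.1%) and 76.6% of all genes were higher. This scaling uses the same 8 markers, of which 6 were lower in cKit dKO, so an upward shift of all genes is built into it. Among them Nanos3 had 0 and 8 counts in the cKit dKO libraries, so a marker with few counts also set the scale. On the deposited RPKM values (limma on log2(RPKM + 0.1)), 5 of the 42 collagen genes were higher and 0 lower. Of all genes, 359 were higher and 3637 lower on these values. The median was 0.34 over the collagen genes and -0.28 over all genes. The depth that these RPKM values imply, relative to the count total, was 1.05 and 0.998 in the cKit dKO libraries, against 0.876 and 0.897 in the cKit control libraries, which lowers every dKO over control ratio on that scale.

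In Thy1 spermatogonia, 1 of the 42 collagen genes, Col23a1, was higher in dKO than in control and 0 were lower, where 0.624% of all genes were called (0.362% higher and 0.262% lower). Col23a1 had 91.7 and 95.6 CPM in Thy1 dKO, against 60.8 and 56.6 CPM in Thy1 control (log2 fold change 0.67 ± 0.14, edgeR adjusted p = 0.0459). Its groups did not overlap, but its call was lost when any 1 of the 4 Thy1 libraries or cKit control replicate 2 was left out (edgeR adjusted p of 0.0534 to 0.418, log2 fold change 0.62 to 0.72). Col25a1 had 39.9 and 43.2 CPM in Thy1 dKO, against 24.2 and 24.4 CPM in Thy1 control (log2 fold change 0.78 ± 0.18, edgeR adjusted p = 0.0575). The median log2 fold change was 0.21 over the collagen genes and 0.03 over all genes tested. DESeq2 called 2 collagen genes among 330 genes in all, and the fit to the 4 Thy1 libraries alone called 3 among 870.

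All 6 type IV genes had both Thy1 dKO libraries above both Thy1 control libraries, at log2 values of 0.16 (Col4a2) to 0.47 (Col4a3), and none was called (lowest edgeR adjusted p = 0.154, for Col4a1). Over the 42 genes this held for 19, and the reverse for 3, where the CPM of 28.5% of all genes lay wholly above and of 22.8% wholly below. Col4a1 had 753 and 825 CPM in Thy1 dKO, against 650.3 and 625 CPM in Thy1 control, and Col4a2 had 636 and 684 CPM in Thy1 dKO, against 619.5 and 560.1 CPM in Thy1 control. Col4a3 had 166 and 153 CPM in Thy1 dKO, against 106 and 124 CPM in Thy1 control, and Col4a4 had 138 and 119 CPM in Thy1 dKO, against 109.9 and 114 CPM in Thy1 control. The chains of the X-linked pair stood in the same order, since Col4a5 had 118 and 122 CPM in Thy1 dKO, against 105 and 98.7 CPM in Thy1 control, and Col4a6 had 32.6 and 33.9 CPM in Thy1 dKO, against 31.7 and 24.6 CPM in Thy1 control. The abundant fibrillar genes overlapped between the groups. Col1a1 had 1704 and 1738 CPM in Thy1 dKO, against 2414 and 1558 CPM in Thy1 control (log2 fold change -0.21 ± 0.16, edgeR adjusted p = 0.608), and Col3a1 had 3223 and 3394 CPM in Thy1 dKO, against 3857 and 2984 CPM in Thy1 control (log2 fold change -0.05 ± 0.12, edgeR adjusted p = 0.908). Thy1 control replicate 1 was the highest of the 8 libraries for both. Col1a2, Col5a1 and Col5a2 had log2 values of 0.09, -0.14 and 0.08, and none was called. Col5a1 had 467 and 469 CPM in Thy1 dKO, against 598 and 436 CPM in Thy1 control. Col5a2 had 177 and 206 CPM in Thy1 dKO, against 194 and 169.7 CPM in Thy1 control. Col1a2 had 3430.1 and 3520.1 CPM in Thy1 dKO, against 3749 and 2802 CPM in Thy1 control. Col11a1, with 35.2 and 35.2 CPM in Thy1 dKO, against 25.5 and 21.8 CPM in Thy1 control, and Col27a1, with 23.4 and 27.5 CPM in Thy1 dKO, against 18.8 and 12.5 CPM in Thy1 control, lay above control in both dKO libraries without a call (edgeR adjusted p = 0.132 and 0.188). Of the 14 stromal markers 0 were called in Thy1 and their sums were 5048 to 5296 CPM in dKO and 4600.5 to 5392 CPM in control; 0 of the 8 germ cell markers were called. Other lists were higher in Thy1 dKO without overlap, where 0.362% of all genes were called higher. The endothelial markers summed to 526 to 539 CPM in Thy1 dKO, against 353 CPM in both Thy1 control libraries (1 of 8 called higher), and the Leydig markers to 3532 to 3974 CPM in Thy1 dKO, against 2414 to 3004 CPM in Thy1 control (2 of 6). The Sertoli markers summed to 468 to 491 CPM in Thy1 dKO, against 355 CPM in both Thy1 control libraries (1 of 9), and the macrophage markers to 1209 to 1343 CPM in Thy1 dKO, against 867 to 997 CPM in Thy1 control (0 of 7). Their part in the type IV values was not tested.

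Among the other types in Thy1, the abundant chains lay close to control. Col6a1 had 588 and 608 CPM in Thy1 dKO, against 627 and 457 CPM in Thy1 control (log2 fold change 0.14 ± 0.13). Col6a2 had 531 and 524 CPM in Thy1 dKO, against 689 and 457 CPM in Thy1 control (-0.12 ± 0.15), and Col6a3 had 413 and 427 CPM in Thy1 dKO, against 519 and 368 CPM in Thy1 control (-0.08 ± 0.15 on the log2 scale). Col12a1, the FACIT with the largest called change in cKit, had 197 and 156 CPM in Thy1 dKO, against 179 and 111 CPM in Thy1 control (0.29 ± 0.20), with overlapping groups. Col15a1 had 172 and 185 CPM in Thy1 dKO, against 155 and 163 CPM in Thy1 control (0.17 ± 0.13), and Col18a1 had 26.5 and 32.8 CPM in Thy1 dKO, against 30.7 and 22.7 CPM in Thy1 control (0.15 ± 0.25). None of these passed, with edgeR adjusted p of 0.574 to 0.878. The remaining fibrillar genes were low: Col2a1 had 2.25 and 1.63 CPM in Thy1 dKO, against 0.919 and 0 CPM in Thy1 control, Col11a2 had 0.787 and 2.18 CPM in Thy1 dKO, against 1.58 and 1.64 CPM in Thy1 control, and Col24a1 had 3.600 and 3.13 CPM in Thy1 dKO, against 1.05 and 1.41 CPM in Thy1 control, with edgeR adjusted p of 0.423, 0.959 and 0.416.

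The difference between the dKO effects, cKit minus Thy1, was tested directly in the same fit. It was positive for 8 of the 42 collagen genes and negative for 0, where 5.92% of all genes passed (1.86% positive and 4.06% negative). The 8 were the fibrillar genes Col1a1, Col3a1 and Col5a3 and the others Col6a2, Col6a3, Col8a1, Col12a1 and Col15a1. For Col1a1 the difference was 1.52 ± 0.22 on the log2 scale (edgeR adjusted p = 0.00167), and for Col5a3 1.42 ± 0.31 (edgeR adjusted p = 0.0135). Col5a3 had 32.6 and 24.8 CPM in cKit dKO, against 11.4 and 16.6 CPM in cKit control, and 30.1 and 27.1 CPM in Thy1 dKO, against 38.2 and 35.9 CPM in Thy1 control. Col8a1 gave the largest difference, 1.89 ± 0.50 (edgeR adjusted p = 0.0372), although neither of its effects was called alone. It had 13.8 and 13.9 CPM in cKit dKO, against 8.13 and 7.01 CPM in cKit control, and 3.15 and 4.49 CPM in Thy1 dKO, against 5.65 and 9.73 CPM in Thy1 control. Both cKit dKO libraries were thus above cKit control, and both Thy1 dKO libraries below Thy1 control. The differences of Col6a2, Col6a3, Col12a1, Col15a1 and Col3a1 were 1.09 ± 0.22, 1.10 ± 0.23, 1.33 ± 0.32, 0.92 ± 0.20 and 0.64 ± 0.17. For the type IV genes the difference ran from 0.29 to 0.54 and none passed (edgeR adjusted p of 0.0707 to 0.578), so the 5 cKit calls and 0 Thy1 calls among them are not shown to differ. The same holds for Col1a2, with 0.66 ± 0.19 (edgeR adjusted p = 0.0517). The count changed with the libraries used. Leaving out 1 library at a time, Col1a1 passed each time and each of the other 7 missed the threshold at least 2 times (edgeR adjusted p of 0.0507 to 0.193 where missed); 2 genes passed without cKit control replicate 1, 2 without Thy1 dKO replicate 1, 4 without Thy1 dKO replicate 2, 4 without Thy1 control replicate 1 and 15 without cKit dKO replicate 2. Without cKit control replicate 2, Thy1 control replicate 2 and cKit dKO replicate 1, 8, 9 and 10 genes passed. The number over all genes moved as well, from 883 with all 8 libraries. It was 220 without Thy1 dKO replicate 1, 297 without Thy1 control replicate 1, 367 without cKit control replicate 1 and 378 without Thy1 dKO replicate 2. It was 526 without Thy1 control replicate 2, 967 without cKit control replicate 2, 983 without cKit dKO replicate 1 and 1268 without cKit dKO replicate 2. In the test with all 8 libraries, 7 of the 14 stromal markers were positive and 6 of the 8 germ cell markers negative.

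The comparison of the populations in control cells shares the cKit control and Thy1 control libraries with the dKO comparisons, so each is given by its own values. In cKit control 4 of the 42 collagen genes were higher and 19 lower than in Thy1 control, where 19.7% of all genes were called (9.46% higher and 10.3% lower). The median log2 fold change was -0.60 over the collagen genes and 0.01 over all genes tested. With germ cell marker scaling the collagen median became 0.16, where the median of all genes was 0.75. Then 5 collagen genes were higher (11.9%, against 24.4% of all genes). Under that scaling 9 of the 42 collagen genes and 408 of the 14907 genes were lower. Relative to the median of all genes, the collagen median was negative in every setting. Both cKit control libraries were above both Thy1 control libraries for 7 collagen genes and below them for 27, where the CPM of 29.9% of all genes lay wholly above and of 29.8% wholly below. Of the 11 fibrillar genes 1 was higher and 7 lower, and their median, -1.42, was negative in every setting. Col1a1 had 248 and 261 CPM in cKit control, against 2414 and 1558 CPM in Thy1 control (log2 fold change -2.97 ± 0.17, edgeR adjusted p = 1.46e-08). Col5a1 had 123 and 109 CPM in cKit control, against 598 and 436 CPM in Thy1 control (-2.15 ± 0.16 on the log2 scale, edgeR adjusted p = 1.81e-07). Col1a2, Col3a1, Col5a2, Col5a3 and Col27a1 were lower as well, at -1.71, -1.66, -1.99, -1.42 and -0.83. The exception was Col11a1, which was higher, with 40.6 and 42.95 CPM in cKit control, against 25.5 and 21.8 CPM in Thy1 control (0.82 ± 0.17 on the log2 scale, edgeR adjusted p = 0.00269). Col27a1 lost its call when any 1 of 4 libraries was left out (Thy1 dKO replicate 2, Thy1 control replicate 1 and both cKit control libraries; edgeR adjusted p of 0.0511 to 0.309).

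The largest population differences lay among the other types. Col6a5 had 1.21 and 2.804 CPM in cKit control, against 90.5 and 67.1 CPM in Thy1 control (log2 fold change -5.37 ± 0.37, edgeR adjusted p = 8.18e-08). Col12a1 had 10.5 and 13.00 CPM against 179 and 111 CPM (-3.64 ± 0.24), Col6a6 had 4.58 and 3.696 CPM against 51.7 and 45.1 CPM (-3.53 ± 0.23), and Col6a3 had 57.9 and 52.5 CPM against 519 and 368 CPM (-3.004 ± 0.17 on the log2 scale), each in cKit control against Thy1 control. Col15a1 was lower, at -2.69 ± 0.15 on the log2 scale. Of the other type VI chains, Col6a2 fell by 0.96 on the log2 scale, and Col6a1 was not called (-0.29 ± 0.13, edgeR adjusted p = 0.144). Col9a1, a FACIT of cartilage, had 1 count over the cKit control libraries, against 32 counts over the Thy1 control libraries, and its call was lost without Thy1 control replicate 1 or cKit control replicate 1 (edgeR adjusted p of 0.0836 to 0.105). Col16a1, another FACIT, had 6.83 and 4.72 CPM in cKit control, against 19.7 and 10.1 CPM in Thy1 control (-1.34 ± 0.34 on the log2 scale), and Col8a2, a short-chain collagen, had 1.56 and 1.27 CPM, against 9.06 and 3.28 CPM (-2.09 ± 0.61). Col23a1 had 40.5 and 38.7 CPM in cKit control, against 60.8 and 56.6 CPM in Thy1 control, with -0.57 ± 0.15 on the log2 scale, which turned to 0.18 with germ cell marker scaling. Col16a1 and Col23a1 lost the call without Thy1 control replicate 1 or cKit control replicate 2 (edgeR adjusted p of 0.0905 to 0.221, and of 0.0594 to 0.0945), and Col8a2 without Thy1 control replicate 1 or either cKit control library (0.0898 to 0.354). Col7a1, the anchoring fibril collagen, and Col22a1, a FACIT, were higher, at 1.34 ± 0.36 and 1.42 ± 0.41. Col7a1 had 8.39 and 12.6 CPM in cKit control, against 5.12 and 3.17 CPM in Thy1 control, and Col22a1 had 9.77 and 11.2 CPM in cKit control, against 3.94 and 3.87 CPM in Thy1 control. Col22a1 lost its call when any 1 of the 4 control libraries was left out (edgeR adjusted p of 0.0577 to 0.128), Col7a1 without Thy1 control replicate 2 or cKit control replicate 2 (edgeR adjusted p of 0.144 to 0.174).

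Type IV held lower and higher genes. Col4a3 had 43.7 and 47.7 CPM in cKit control, against 106 and 124 CPM in Thy1 control (-1.33 ± 0.18 on the log2 scale, edgeR adjusted p = 5.31e-05), and Col4a4 had 56.6 and 53.8 CPM, against 109.9 and 114 CPM (-1.02 ± 0.13, edgeR adjusted p = 4.71e-05). Col4a5 went the other way, with 124 and 134 CPM in cKit control, against 105 and 98.7 CPM in Thy1 control (0.34 ± 0.11, edgeR adjusted p = 0.0478), and that call was lost when any 1 of the 6 libraries other than cKit dKO was left out (edgeR adjusted p of 0.0608 to 0.254). Col4a1, Col4a2 and Col4a6 were not called (-0.25 ± 0.10, -0.26 ± 0.11 and -0.62 ± 0.21; edgeR adjusted p = 0.0884, 0.106 and 0.0516). In the same comparison, 9.46% of all genes were called higher and 10.3% lower. There 14 of 14 stromal markers were lower, summing to 1011 to 1056 CPM in cKit control, against 4600.5 to 5392 CPM in Thy1 control. All 6 of 6 Leydig markers were higher, summing to 10459.8 to 12569 CPM in cKit control, against 2414 to 3004 CPM in Thy1 control. Of the other lists, 6 of 7 macrophage markers, 4 of 8 germ cell markers, 3 of 8 endothelial markers and 1 of 9 Sertoli markers were lower, and 1 endothelial and 2 Sertoli markers were higher; the macrophage markers summed to 167 to 389 CPM in cKit control, against 867 to 997 CPM in Thy1 control. The part of such cells in the collagen difference was not tested.

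In dKO cells, cKit dKO had 6 collagen genes higher and 16 lower than Thy1 dKO, where 34.8% of all genes were called (14.8% higher and 20% lower). This comparison rests on the same dKO libraries as the 2 dKO comparisons, so its values are no separate support. Both cKit dKO libraries were above both Thy1 dKO libraries for 12 collagen genes and below them for 19, where the CPM of 29.3% of all genes lay wholly above and of 38.2% wholly below. Col1a1 had 699 and 561 CPM in cKit dKO, against 1704 and 1738 CPM in Thy1 dKO (-1.45 ± 0.16 on the log2 scale, edgeR adjusted p = 8.36e-06; 0.31 with germ cell marker scaling). Col5a3 had 32.6 and 24.8 CPM in cKit dKO, against 30.1 and 27.1 CPM in Thy1 dKO, and was not called (0.00 ± 0.21, edgeR adjusted p = 0.994). The higher genes were Col11a1, Col4a5, Col7a1, Col8a1, Col18a1 and Col22a1, at 1.05, 0.64, 1.16, 1.86, 0.69 and 1.23. Of the lower genes Col2a1 and Col9a1 had 0 counts in both cKit dKO libraries, against 32 and 27 counts over the Thy1 dKO libraries. They were at least 8.30-fold lower (Col2a1) and at least 7.00-fold lower (Col9a1), with 3 counts for the group as the floor. The other 14 lower genes were Col1a1, Col1a2, Col3a1, Col5a1, Col5a2, Col4a3, Col4a4, Col6a3, Col6a5, Col6a6, Col8a2, Col12a1, Col15a1 and Col16a1, from -0.47 (Col4a4) to -4.89 (Col6a5). With germ cell marker scaling 8 of these turned positive (Col1a1, Col1a2, Col3a1, Col5a1, Col5a2, Col4a3, Col4a4 and Col16a1, at 0.28 to 1.27). Leaving out single dKO libraries lost the calls of Col18a1, Col7a1 and Col2a1 (3 libraries each), and of Col22a1, Col4a4 and Col16a1 (2 libraries each), at edgeR adjusted p of 0.054 to 0.374. The split turned to 24 higher and 4 lower with germ cell marker scaling, where 11262 of the 14907 genes were higher and 163 lower and the median of all genes was 1.62. The share of collagen genes higher under that scaling (57.1%) was thus below that of all genes (75.5%). Markers of other cells moved in this comparison too: 11 of 14 stromal, 6 of 7 macrophage, 6 of 8 germ cell and 2 of 8 endothelial markers were lower, and 6 of 6 Leydig and 2 of 9 Sertoli markers were higher. The stromal markers summed to 1943 to 2471 CPM in cKit dKO, against 5048 to 5296 CPM in Thy1 dKO, and the Leydig markers to 14437 to 17155 CPM in cKit dKO, against 3532 to 3974 CPM in Thy1 dKO; their part in the collagen difference was not tested.

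**Figure D4:**
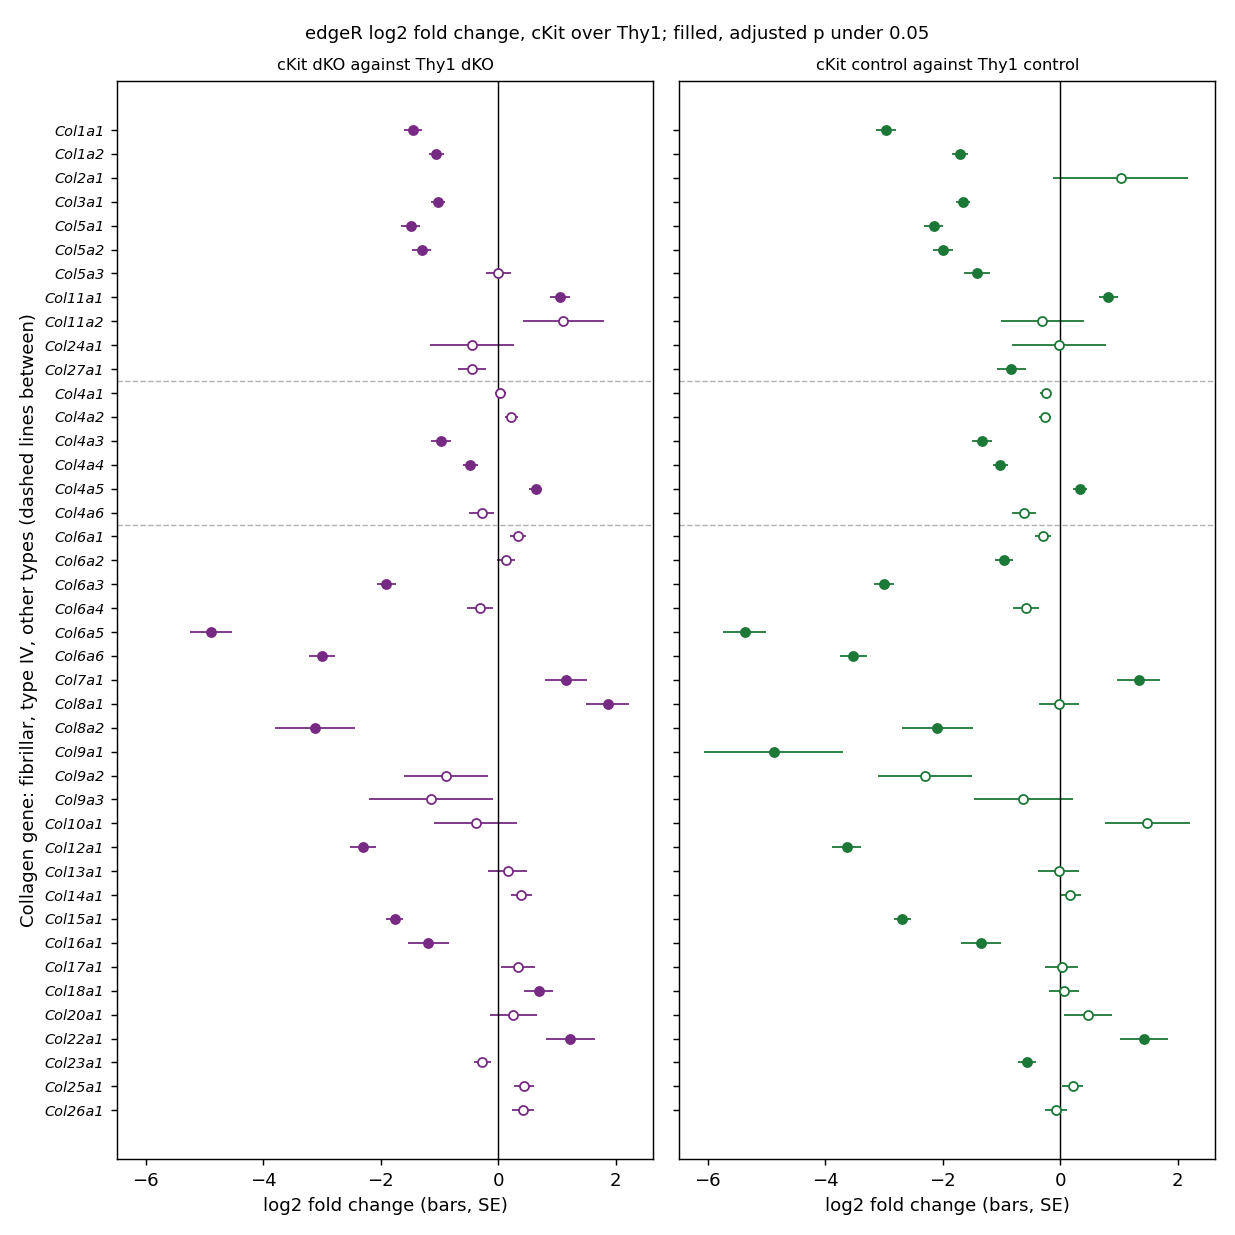
edgeR log2 fold change of cKit over Thy1, with its standard error, in dKO (left) and in control (right) for each collagen gene tested; filled points are called, and Col2a1 and Col9a1 are left out on the left because of 0 counts in cKit dKO. Col6a5 lies farthest below 0 in both panels, and Col11a1 lies above 0 in both. With germ cell marker scaling the split on the left turns to 24 higher (57.1%, against 75.5% of all genes) and 4 lower genes. That on the right turns to 5 higher (11.9%, against 24.4% of all genes) and 9 lower. Of the 14907 genes, 163 were lower on the left and 408 on the right under that scaling.

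Chains that assemble into 1 trimer may be encoded by genes with unequal RNA levels, so the RPKM of partner chains was compared within each library. The ratio of Col1a1 to Col1a2 was 0.404 and 0.421 in cKit dKO, against 0.271 and 0.284 in cKit control, and 0.544 and 0.541 in Thy1 dKO, against 0.705 and 0.609 in Thy1 control. The 2 groups did not overlap in either population, with dKO above control in cKit and below it in Thy1. Col4a1 to Col4a2 was 1.01 to 1.17 in all 8 libraries. For the second head-to-head pair, Col4a3 to Col4a4, with deposited 5′ ends 72 bases apart, the ratio was 0.8997 and 0.676 in cKit dKO, 0.7003 and 0.804 in cKit control, 1.09 and 1.17 in Thy1 dKO and 0.875 and 0.985 in Thy1 control. Col4a5 to Col4a6, 1343 bases apart, was 6.84 and 7.52 in cKit dKO, 8.399 and 6.59 in cKit control, 3.799 and 3.78 in Thy1 dKO and 3.49 and 4.22 in Thy1 control, so every cKit library was above every Thy1 library. Col6a1 to Col6a2 was 1.24 and 1.200 in cKit dKO, 1.502 and 1.32 in cKit control, 1.04 and 1.09 in Thy1 dKO and 0.854 and 0.939 in Thy1 control. It was below control in cKit dKO and above control in Thy1 dKO, without overlap. Col6a3 to Col6a1 was 0.06798 and 0.0611 in cKit dKO, 0.0579 and 0.0507 in cKit control, 0.308 and 0.307 in Thy1 dKO and 0.363 and 0.354 in Thy1 control. With 2 libraries a group no exact permutation test could pass 0.05, and none was run on these ratios. How often the ratios of other gene pairs part without overlap was not tested. Such parting is common for single genes. In cKit the CPM of 30.8% of all genes lay wholly above control in dKO and of 30% wholly below. In Thy1 these shares were 28.5% and 22.8%.

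**Figure D5:**
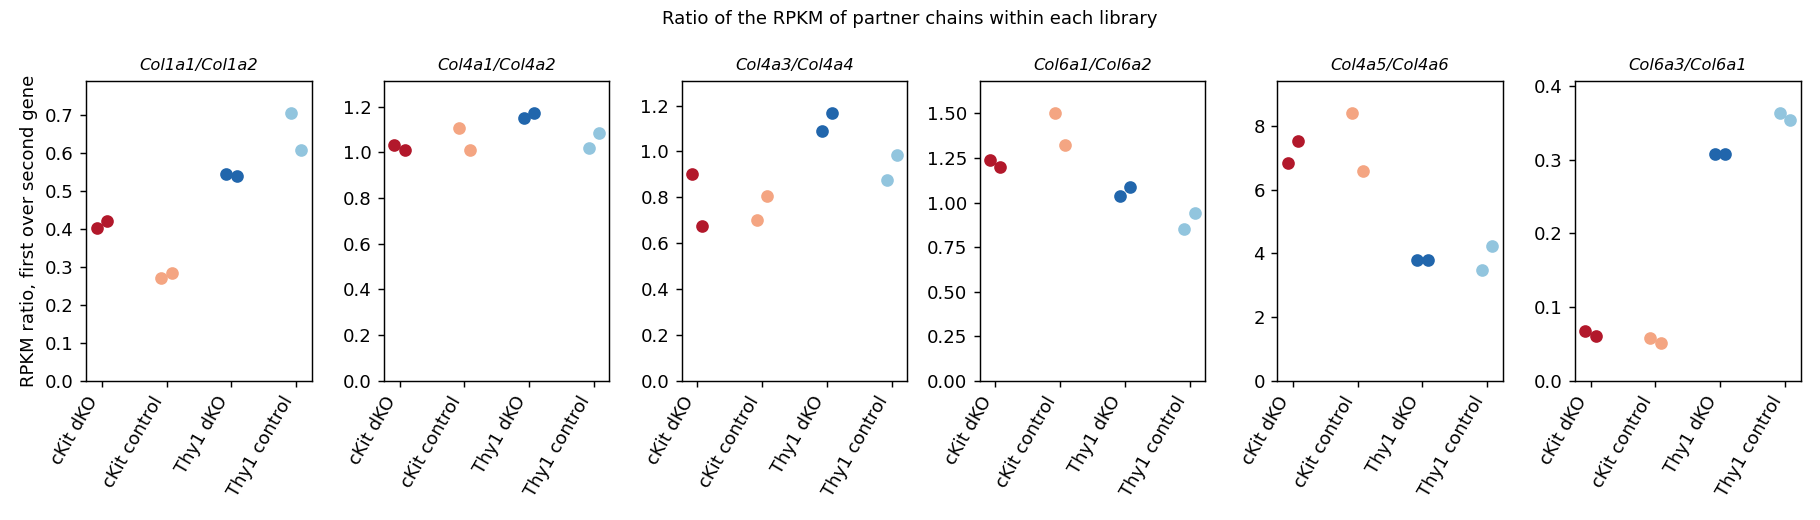
Ratio of deposited RPKM of partner chains in each library (points), by group. Col1a1 over Col1a2 is higher in cKit dKO than in cKit control and lower in Thy1 dKO than in Thy1 control, Col4a1 over Col4a2 stays between 1.01 and 1.17, and Col6a3 over Col6a1 and Col4a5 over Col4a6 separate the populations.

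A list of 49 genes that act on collagens was read in the same fit, and 47 passed the low count filter. In cKit dKO 15 of the 47 (31.9%) were higher and 4 (8.51%) lower than in control, where 13.2% of all genes were higher and 15.4% lower. Serpinh1, the collagen chaperone HSP47, had 233 and 223 CPM in cKit dKO, against 127 and 138 CPM in cKit control (log2 fold change 0.78 ± 0.12, edgeR adjusted p = 0.000221). Sparc, a collagen-binding matricellular protein, had 3981 and 4752 CPM in cKit dKO, against 2376 and 3053 CPM in cKit control (log2 fold change 0.69 ± 0.14, edgeR adjusted p = 0.00188). With them rose Creb3l1, a transcription factor of collagen genes (0.65), and Sec24d, a coat subunit used in procollagen export (0.46). The prolyl 3-hydroxylation genes Crtap and Leprel1 (0.75 and 0.89) and Leprel4, a relative of Leprel1 (0.77), were higher as well. So were Fkbp10 and Colgalt2, which act in lysyl modification (0.77 and 1.17). The propeptide processing genes Adamts2, Adamts14, Bmp1 and Pcolce rose too (0.73, 0.68, 0.77 and 0.48). The last 2 were the cross-linking enzyme gene Loxl1 (0.96) and the collagen receptor gene Ddr2 (0.89). The lower genes included Klhl12, a ubiquitin ligase adaptor for large export vesicles (-1.18), and Tmem38b, an endoplasmic reticulum cation channel (-0.74). The others were Adamts3, a procollagen N-proteinase (-1.10), and Pcolce2, an enhancer of C-propeptide removal. Pcolce2 had 0 counts in both cKit dKO libraries, against 7 and 4 counts in the cKit control libraries. By the pooled counts it was at least 2.39-fold lower against the floor of 3 counts. The prolyl 4-hydroxylase genes P4ha1, P4ha2, P4ha3 and P4hb were not called (0.07, 0.40, -1.09 and -0.01), nor was the lysyl hydroxylase gene Plod2, with 409 and 388 CPM in cKit dKO, against 434 and 525 CPM in cKit control.

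In Thy1 dKO 1 of the 47 (2.13%) was called higher, where 0.362% of all genes were, and 0 were called lower. This was Leprel1, a prolyl 3-hydroxylase gene, with 36.2 and 39.98 CPM in Thy1 dKO, against 19.04 and 18.99 CPM in Thy1 control (log2 fold change 1.001 ± 0.20, edgeR adjusted p = 0.0338). The difference of the dKO effects was positive for 3 of the 47 (6.38%), where it was for 1.86% of all genes, and negative for 0. The 3 were Serpinh1, Sparc and Crtap, at 0.80 ± 0.17, 0.80 ± 0.20 and 0.67 ± 0.18 (edgeR adjusted p = 0.011, 0.0254 and 0.0409). In cKit control 5 of the 47 (10.6%) were higher, about the 9.46% of all genes, and 19 (40.4%) were lower than in Thy1 control, where 10.3% of all genes were. The higher ones were Plod2, Pcolce, Creb3l1, Mia3 and Ctage5, and Lox, the lysyl oxidase gene, was the most lowered, with 11.2 and 6.37 CPM in cKit control, against 100.1 and 61.8 CPM in Thy1 control (-3.17 ± 0.33 on the log2 scale, edgeR adjusted p = 5.27e-06). A further 18 genes were lower: Adamts14, Adamts2, Bmp1, Fkbp10, Itga1, Itga10, Lair1, Leprel1, Leprel2, Loxl1, Loxl3, Mrc2, P4ha2, Plod1, Pxdn, Serpinh1, Sparc and Tll1, from -0.44 to -2.81 on the log2 scale. In dKO cells 8 (17.0%, where 14.8% of all genes were) were higher in cKit than in Thy1 (Creb3l1, Crtap, Ddr2, Loxl2, Mia3, Pcolce, Plod2 and Serpinh1) and 17 (36.2%, where 20% of all genes were) were lower, among them Adamts3 and Klhl12, which were also lower in cKit dKO than in cKit control.

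The remaining collagen genes were called in no comparison or not tested. Col19a1 and Col28a1 did not pass the low count filter, with 1, 4, 18 and 6 counts for Col19a1 over the cKit dKO, cKit control, Thy1 dKO and Thy1 control libraries and 2, 2, 6 and 4 counts for Col28a1 over the same groups. Col9a2, Col9a3, Col10a1, Col13a1, Col17a1, Col20a1, Col6a4 and Col14a1 passed the filter and were called in none of the 5 comparisons. Col14a1 had 135 to 226 CPM over the 8 libraries; the other 7 of these were at most 57.7 CPM in any library. Reads of Col10a1 and Nt5dc1, and of Col9a3 and Tcfl5, cannot be told apart where these genes overlap on opposite strands, since the strand setting of the counting is not stated.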

How the data were processed

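RNA of Thy1+ and cKit+ spermatogonia was amplified (NuGEN Ovation) and made into libraries (Nextera XT), per the labels' protocols. The submitters' processing notes name STAR 2.4.2a and the mm10 build; the counting tool and its strand setting are not given in the sources used here. The authors deposited, per the file headers, a table per library with read counts (whole numbers) and RPKM for 26099 transcript entries. The depth that the RPKM values imply is not proportional to the count totals (relative ratio 0.876 to 1.09 over the libraries), so RPKM carries a scaling of its own between groups.

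Counts were summed over the entries of a symbol. Genes were filtered by group with filterByExpr, scaled by TMM and tested with edgeR 4.0.16 in R 4.3.3 (quasi-likelihood, two-sided, 1 mean per group over 8 libraries, 4 residual degrees of freedom), with Benjamini-Hochberg adjustment over the 14907 genes tested and a threshold of 0.05. CPM uses the TMM-scaled library sizes. The ± after a log2 value is its standard error, derived from the log2 fold change and the F statistic of the quasi-likelihood test. RPKM was read from the entry of highest mean. Libraries of a group were not repeats of 1 library: their counts differed by 4.27 to 12.7 times the sampling noise (chi-square over degrees of freedom). A floor of 3 counts over a group stands in for 0. The procedure was tested on simulated counts.

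Alternatives were RLE size factors, library totals, germ cell marker scaling, other filters, DESeq2 1.42.0, limma 3.58.1 on log2(RPKM + 0.1) or log2(RPKM + 1), 1 entry per symbol, a replicate block, 4 libraries only, and leaving out each library. RPKM centred on library medians was added after seeing the data. Same-numbered libraries did not deviate together (correlation -0.0453 to 0.0522), so the numbers do not pair them. The genes named were the fibrillar and type IV genes tested, other genes called in at least 1 of 5 comparisons or among the 5 of highest mean RPKM, and called partner genes; most partner genes are given by their log2 fold change alone. The collagen genes, partner genes and marker lists (peritubular and stromal, Sertoli, Leydig, endothelial, macrophage, germ cell) were chosen with earlier results of these data known. Promoter sequences are RefSeq's, in GRCm38.p6.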

Additional observations from a re-analysis of the deposited data

Results flagged for a closer look

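For 8 collagen genes the effect of dKO differed between the populations by the interaction contrast (edgeR adjusted p under 0.05). The difference, cKit minus Thy1, was 1.52 for Col1a1, 0.64 for Col3a1 and 1.42 for Col5a3 on the log2 scale. It was 1.09 for Col6a2, 1.10 for Col6a3 and 1.89 for Col8a1. For the FACIT gene Col12a1 it was 1.33, and for the multiplexin gene Col15a1 0.92. None of the 8 passed in every alternative tried. With 2 libraries in each group, no group was large enough for a check for outlying libraries.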

How the results depend on the processing

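The number of collagen genes called in cKit dKO was 23, among 4259 genes called in all. It was 37 (among 11472) with germ cell marker scaling. With limma on log2(RPKM + 0.1) it was 5, among 3996 genes of which 359 were higher. On log2(RPKM + 1) it was 4, among 4002 genes of which 388 were higher. With libraries centred, an alternative chosen after seeing the data, it was 20 among 3265. Leaving out 1 library gave 21 to 25, among 2387 to 3972. The collagen median in cKit dKO was positive in every setting, and Col1a1, Col6a2, Col15a1 and Col23a1 passed in all of them. In Thy1 dKO 1 collagen gene was called, among 93 genes in all. DESeq2 called 2 (among 330), no filter 3 (among 563) and the 4 Thy1 libraries alone 3 (among 870). Library totals (84 genes in all), 1 entry per symbol (9 in all) and the 3 RPKM alternatives (1 to 4 in all) called 0. Leaving out 1 library gave 0 to 2, among 3 to 400. In cKit control against Thy1 control (23, among 2939 genes in all), germ cell marker scaling gave 14 (among 4050). Leaving out 1 library gave 17 to 26 (among 1717 to 3575). The range was also 17 to 26 in dKO cells (22, among 5190), among 3101 to 5245 genes. The difference of the dKO effects (8) counted 13 with DESeq2, 14 with no filter, 3 with 1 entry per symbol and 0 with each RPKM alternative; leaving out 1 library gave 2 to 15. With a replicate block, although the numbers do not pair the libraries, the counts were 1, 24, 23, 22 and 11 (Thy1 dKO, cKit dKO, controls, dKO cells, difference). Those of all genes were then 157, 4217, 2958, 5127 and 924. Signs turned under germ cell marker scaling alone: Col23a1 to 0.18 between controls, and in dKO cells Col1a1 to 0.31, Col1a2 to 0.71, Col3a1 to 0.73, Col4a3 to 0.82, Col4a4 to 1.27, Col5a1 to 0.28, Col5a2 to 0.48 and Col16a1 to 0.52. The cause of these changes was not tested, except that leaving out a library or using 4 also lowers the number of samples. Of the recomputed values of named genes called in the main fit, 1380 kept their direction and call, 220 lost the call and 9 turned. Named genes not called in the main fit are outside this tally, and some gained a call. With germ cell marker scaling these were 8 of 11 in cKit dKO and 11 of 12 in dKO cells. For the difference of the dKO effects, 7 of 26 gained one without cKit dKO replicate 2. The standard errors rest on 2 libraries a group, with the spread of a gene estimated over all groups together. Genes with few counts, such as Col2a1 and Col9a1, were limited by depth.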
